A study of Homo sapiens with 12 samples.

Results

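SAGA is a transcriptional coactivator that shares its histone acetyltransferase with ATAC, and the subunits that SAGA has and ATAC lacks were followed by their RNA. The members were the 10 genes SUPT3H, SUPT7L, SUPT20H, TADA1, TADA2B, TAF5L, TAF6L, USP22, ATXN7L3 and ENY2, taken by symbol from the 58735 gene IDs of the deposited table. All 10 passed the filter on low counts (an average of 5 counts or more) and were among the 18415 genes tested. The libraries came from SW872, a human liposarcoma cell line, stably expressing TAZ-CAMTA1 (TC) or YAP-TFE3 (YT), fusion oncoproteins of epithelioid hemangioendothelioma. Each line also carried a non-targeting hairpin (shNT), a hairpin against YEATS2 or a hairpin against ZZZ3, both coding for ATAC subunits, which gave 6 groups of 2 libraries: TC shNT, TC shYEATS2, TC shZZZ3, YT shNT, YT shYEATS2 and YT shZZZ3. All groups therefore carried a retroviral fusion construct and a hairpin, and no group lacked a fusion. The methods describe pooled stable lines selected for the construct, and the labels do not name the hairpin used for each gene. The study calls the libraries of a condition biological duplicates and describes separate transduction with the constructs for its sequencing in general, without saying this of the hairpins, so p-values measure only the spread between these libraries.

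SAGA and ATAC are both built around the acetyltransferase KAT2A or KAT2B with TADA3 and SGF29, which acetylates histone H3. In SAGA this module is tethered by the adaptor TADA2B, where ATAC uses TADA2A. The SAGA core holds SUPT3H, SUPT7L, SUPT20H, TADA1, TAF5L and TAF6L, several of which resemble subunits of the general transcription factor TFIID. A separate module of USP22, ATXN7L3 and ENY2 removes ubiquitin from histone H2B, a mark laid down with active transcription. ENY2 also works in the mRNA export complex TREX-2, and ATXN7L3 and ENY2 serve the related deubiquitinases USP27X and USP51.

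The 250 bases before the RefSeq start site are shown for the 3 members on which the comparisons below turn, on the gene's strand and in build GRCh38.p14. The RefSeq promoter table matched 9 of the 10 members, all but ENY2, in 10 windows of 300 bases. Capitals mark CACGTG, the E-box letters bound by TFE3 and its relatives. SUPT20H, which fell in YT shYEATS2, has the stretch chr13:37059689-37059938 on the minus strand. ATXN7L3, which rose there, has chr17:44199885-44200134 on the minus strand. TAF6L, the member with the widest ratio of group means, has chr11:62771146-62771395 on the plus strand.
SUPT20H: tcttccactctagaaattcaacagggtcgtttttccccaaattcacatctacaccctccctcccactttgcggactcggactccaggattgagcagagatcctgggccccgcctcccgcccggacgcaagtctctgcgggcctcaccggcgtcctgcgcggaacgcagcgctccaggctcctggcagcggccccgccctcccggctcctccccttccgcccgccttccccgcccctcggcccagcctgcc
ATXN7L3: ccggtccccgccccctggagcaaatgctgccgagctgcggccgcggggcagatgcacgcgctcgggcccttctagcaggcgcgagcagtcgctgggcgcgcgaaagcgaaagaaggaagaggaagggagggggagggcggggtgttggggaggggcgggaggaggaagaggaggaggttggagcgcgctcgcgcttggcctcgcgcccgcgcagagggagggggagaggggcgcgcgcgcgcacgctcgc
TAF6L: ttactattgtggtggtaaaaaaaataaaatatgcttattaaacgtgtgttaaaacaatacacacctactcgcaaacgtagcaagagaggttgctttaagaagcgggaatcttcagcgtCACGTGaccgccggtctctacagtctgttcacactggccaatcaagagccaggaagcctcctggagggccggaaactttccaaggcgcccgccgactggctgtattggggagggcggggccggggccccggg
On either strand of the 300-base windows, CACGTG lay in 3 members (TADA1, TAF5L and TAF6L) and in 7.26% of all 35116 windows. The TEAD letters GGAATG lay in TAF6L, beginning 4 bases after the start site, and in 14% of all windows. The AP-1 letters TGACTCA lay in no member window and in 4.95% of all windows. In TAF6L the CACGTG began 132 bases before the start, so these 2 matches did not overlap. The SUPT20H and ATXN7L3 windows held none of the 3 motifs, and their GC contents of 67.3% and 73.7% were above the median window (58.7%). These matches describe letters and were not read as binding sites.

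Library totals ranged from 17451893 to 29294805 counts, and the smallest member count in any library was 190 (SUPT3H and TADA1). Levels are counts scaled to library size after TMM normalisation (CPM), a gene was called at a Benjamini-Hochberg adjusted p under 0.05 over all genes tested in edgeR's quasi-likelihood test, and changes are log2 fold changes with their SE. YEATS2 was at 45.5 and 35.1 CPM in TC shYEATS2 where TC shNT had 113 and 123, and at 33.9 and 38.5 CPM in YT shYEATS2, where YT shNT had 115 and 117. Both differences were called (-1.54 ± 0.18, adjusted p = 0.0138, and -1.68 ± 0.18, adjusted p = 1.04e-04), in 17 and in 21 of the 21 alternatives run. ZZZ3 was at 21.9 and 22.7 CPM in TC shZZZ3 against 25.6 and 60.4 in TC shNT, a difference that was not called (-0.94 ± 0.42, adjusted p = 0.45). In YT shZZZ3 it was at 12.6 and 29.6 CPM against 71.2 and 49.1 in YT shNT and was called (-1.51 ± 0.43, adjusted p = 0.0453), but in only 9 of the 21 alternatives, with changes of -2.25 to -0.97 and adjusted p up to 0.296 (without the first YT shNT library). All 7 mesenchymal markers examined were above 1 CPM in every library, with VIM at 696 to 2152. Of 7 adipocyte markers 2 were, PPARG at 36.8 to 109 CPM and LPL at 73.3 to 286, with the list summing to 123 to 344 CPM, while LEP had 0 counts in every library and ADIPOQ at most 1. The same held for 4 of 5 endothelial markers, which summed to 42.8 to 269 CPM, and for 2 of 4 epithelial markers, KRT8 and KRT18, in a list summing to 285 to 911 CPM. None of 3 leukocyte markers was, and their sum was 0.0812 to 0.655 CPM. The part of these markers in the results was not tested. In bulk RNA, fewer cells with a transcript and less transcript per cell cannot be told apart.

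The members differed in level far more from gene to gene than from group to group. Per kilobase of merged exons, USP22, the catalytic subunit of the deubiquitinase module, was the most abundant at a mean of 103 CPM per kb over the 12 libraries (76.7 to 133). Its adaptor ATXN7L3 followed at 27 CPM per kb (18 to 34). SUPT7L, a core subunit with a histone fold, was at 14.4 (10.9 to 18.1) and TAF6L, the SAGA counterpart of TAF6, at 10.5 (6.16 to 13.8), so the ranges of these neighbours overlapped. ENY2 was at 6.99 CPM per kb (4.32 to 8.87). TADA1, TAF5L, TADA2B and SUPT20H lay together at 4.82, 4.40, 4.23 and 4.13 CPM per kb with overlapping ranges, and SUPT3H was lowest at 2.16 (1.58 to 2.68). With the length of the canonical transcript in place of merged exons, the value of SUPT20H moved from 4.13 to 15.3 CPM per kb and that of ENY2 from 6.99 to 16.3, while USP22, ATXN7L3 and SUPT7L stayed the 3 highest and SUPT3H the lowest. Within a gene, the ratio of the highest to the lowest group mean ran from 1.26 for TADA2B to 1.77 for TAF6L. YT shNT and YT shYEATS2 held both ends of that range for 5 of the 10 members (SUPT20H, TADA2B, TAF6L, USP22 and ATXN7L3), as the plot of levels by library shows.

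**Figure D1:**
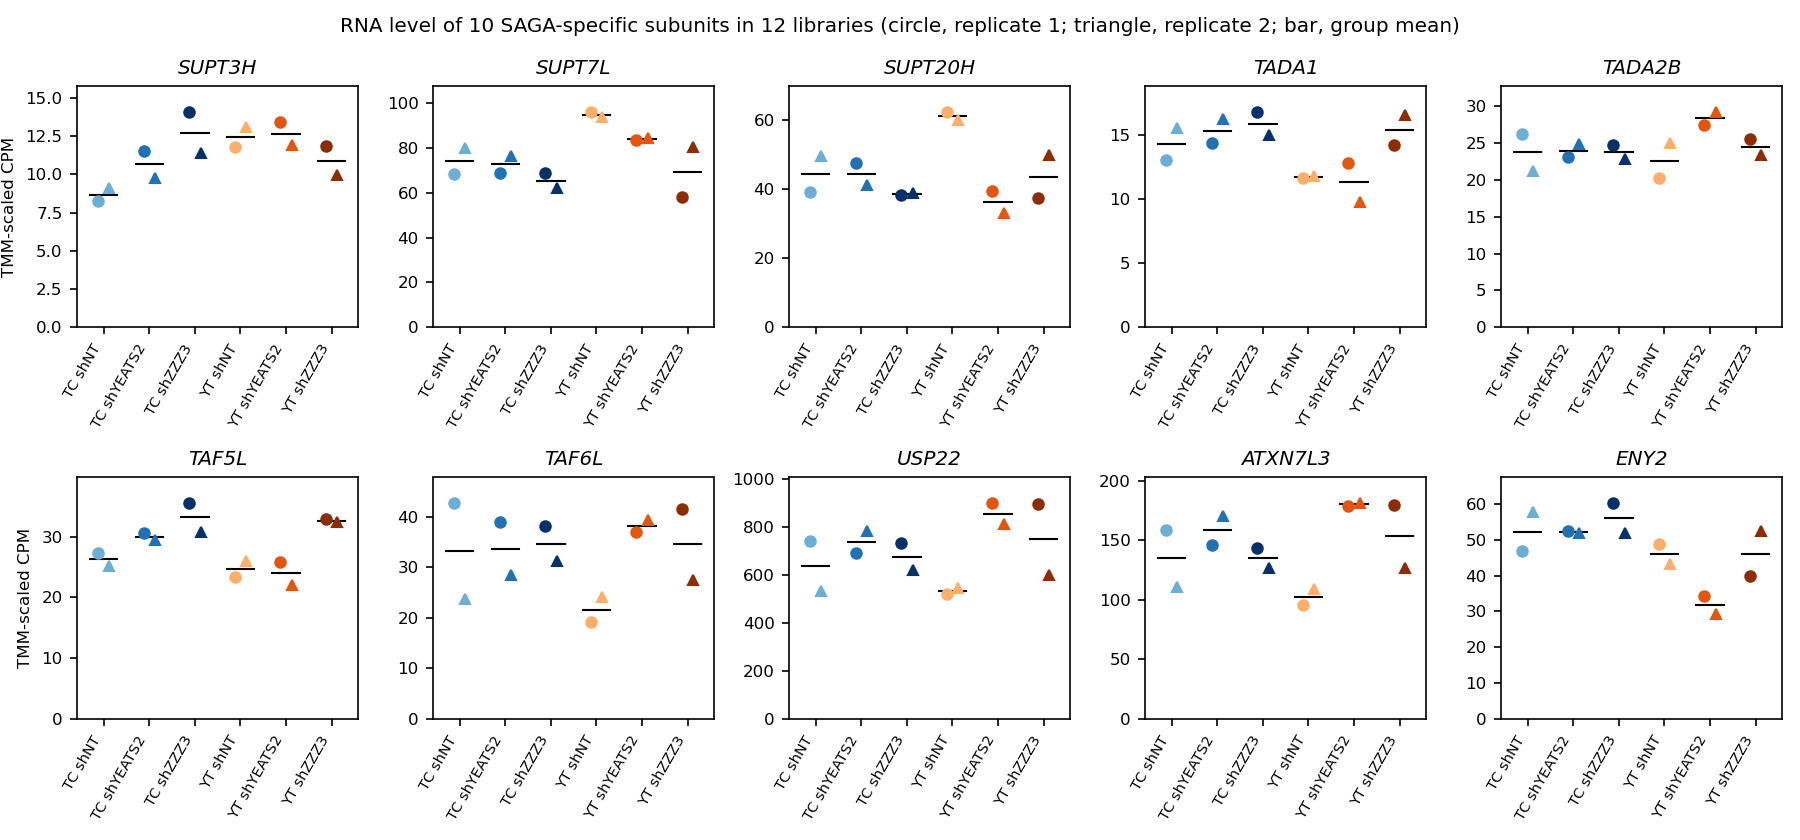
RNA level of the 10 members in each library, on the vertical axis in TMM-scaled CPM starting at 0, with the 6 groups on the horizontal axis (circles, replicate 1; triangles, replicate 2; black lines, mean of 2 libraries). In USP22, ATXN7L3 and TAF6L both YT shNT libraries lie below both YT shYEATS2 libraries, and in SUPT20H and ENY2 both lie above them, while the 2 libraries of TC shNT and of YT shZZZ3 lie far apart for several members.

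YEATS2 knock-down in YT cells was the comparison with the most member calls, and the calls went in opposite directions. SUPT20H fell and ATXN7L3 rose, 2 calls among 10 members, where 20.7% of all genes tested were called. USP22 and TAF6L were higher by a similar factor without passing the test, and ENY2 was lower without passing it. The median log2 fold change of the members was -0.01 (all genes, -0.01), and the median size without sign was 0.43 (all genes, 0.47). The libraries of the 2 groups did not overlap for 7 of the 10 members, and for 74.2% of all genes.

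SUPT20H, a core scaffold subunit (chr13:37009312-37059713, minus strand), was at 62.5 and 60.2 CPM in YT shNT and at 39.7 and 33.1 CPM in YT shYEATS2. The groups were well apart, and the YT shNT libraries were also the highest of all 12. The gene EXOSC8 on the other strand overlaps 19.7% of its exon bases, and whether strand was used in counting is not given in the sources used here. The change was -0.75 ± 0.20, a level 1.68 times lower (adjusted p = 0.0240). ATXN7L3, which activates USP22 (chr17:44191805-44200113, minus strand), was at 95.9 and 109 CPM in YT shNT and at 179 and 181 CPM in YT shYEATS2. Here YT shNT held the 2 lowest of the 12 libraries, and only 1 library of YT shZZZ3 reached the level of YT shYEATS2. The change was 0.81 ± 0.22, a level 1.76 times higher (adjusted p = 0.0250). Both calls were lost when any 1 library of YT shNT or YT shYEATS2 was left out: the adjusted p of SUPT20H was then 0.0801 to 0.193 and that of ATXN7L3 0.0764 to 0.161, at changes of -0.87 to -0.62 and 0.72 to 0.93.

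USP22 (chr17:20999596-21043760, minus strand) was at 519.9 and 546 CPM in YT shNT and at 899.9 and 814 CPM in YT shYEATS2. Its change of 0.69 ± 0.23 was not called (adjusted p = 0.0563). TAF6L, a histone-fold core subunit (chr11:62771357-62787342, plus strand), was at 19.1 and 24 CPM in YT shNT and at 37 and 39.4 CPM in YT shYEATS2. Its change was the widest in size of the 10, 0.83 ± 0.30, and had the largest SE, so it was not called (adjusted p = 0.0765). In DESeq2, which called 23.9% of all genes, both USP22 (0.70, adjusted p = 0.0210) and TAF6L (0.84, adjusted p = 0.0369) were called beside SUPT20H and ATXN7L3. Of the 21 alternatives run, 13 called USP22 and 10 called TAF6L. ENY2, the smallest subunit of the module, was at 48.9 and 43.2 CPM in YT shNT and at 34.2 and 29.3 CPM in YT shYEATS2, the 2 lowest of the 12 libraries. Its change of -0.53 ± 0.20 was not called (adjusted p = 0.0815). A fit to the 4 libraries of this comparison alone called ENY2 too (-0.54, adjusted p = 4.48e-03) and made 5 member calls, but it called 48.6% of all genes. The 3 subunits of the deubiquitinase module thus did not share a direction in their fitted values: USP22 and ATXN7L3 were above 0, ENY2 below.

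The other 5 members differed less. The adaptor TADA2B was at 20.2 and 25 CPM in YT shNT and 27.5 and 29.3 CPM in YT shYEATS2 (0.33 ± 0.20, adjusted p = 0.26). SUPT7L, whose exons share 21% of their bases with GPN1 and SLC4A1AP on the other strand, was at 96.1 and 93.6 CPM against 83.7 and 84.5 CPM (-0.17 ± 0.19, adjusted p = 0.54). In both genes the groups did not overlap, and neither passed the test. SUPT3H, TADA1 and TAF5L had overlapping groups and changes of 0.03, -0.05 and -0.04.

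**Figure D2:**
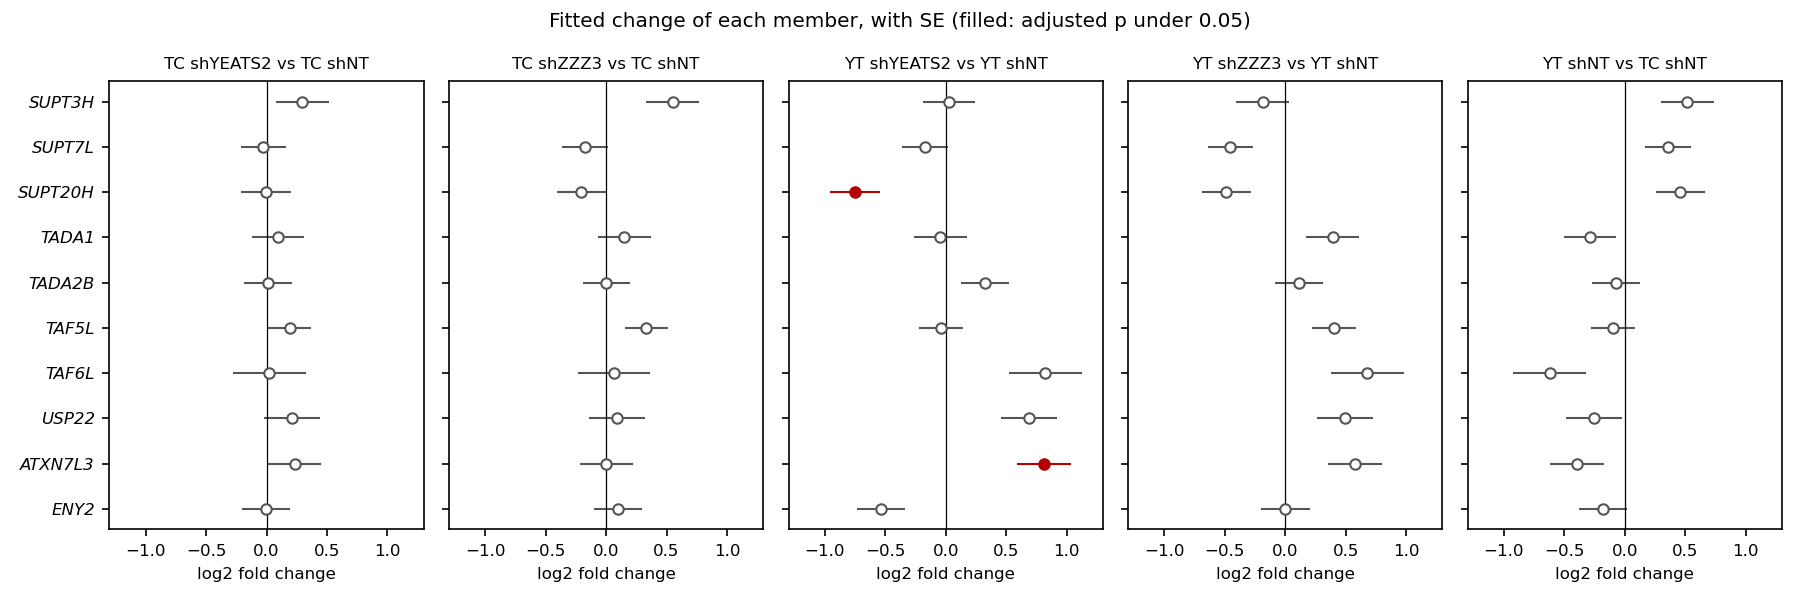
Log2 fold change of each member (horizontal axis) in 5 comparisons, with bars of 1 SE and members in rows; filled red points passed an adjusted p of 0.05 in edgeR. SUPT20H (-0.75) and ATXN7L3 (0.81) in YT shYEATS2 are the 2 filled points, and the TC knock-downs lie nearest to 0.

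GC content was taken from the longest annotated transcript of each gene. It was 53.2%, 59.1% and 63.8% for USP22, ATXN7L3 and TAF6L, the 3 with the largest positive changes. SUPT20H and ENY2 had 40.3% and 38.3%. Of the members that changed less, SUPT3H (37.4%), TADA1 (37.4%), TAF5L (41.5%) and SUPT7L (43.7%) lay near SUPT20H and ENY2 in GC, and TADA2B (52.9%) near USP22. The part of GC in the changes of the members was not tested. Over all genes averaging 50 counts or more, the median change rose from -0.43 at 35 to 40% GC to 0.31 at 60 to 65% GC. The slope of a library's levels on GC, in log2 units per 10 GC points against the mean library, was -0.21 and -0.12 for the YT shNT libraries, against 0.002 and 0.11 for those of YT shYEATS2. With the GC trend of each library removed, 4 members were called, where 31.2% of all genes were: ATXN7L3 (0.63 ± 0.14, adjusted p = 5.98e-03), TAF6L (0.63 ± 0.15, adjusted p = 9.60e-03), USP22 (0.59 ± 0.16, adjusted p = 0.0155) and SUPT20H (-0.49 ± 0.14, adjusted p = 0.0182). These 4 kept their direction at smaller sizes, and ENY2 went from -0.53 to -0.18 (adjusted p = 0.42). SUPT3H and TADA1, the members lowest in GC, went from 0.03 to 0.41 and from -0.05 to 0.34, neither called.

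**Figure D3:**
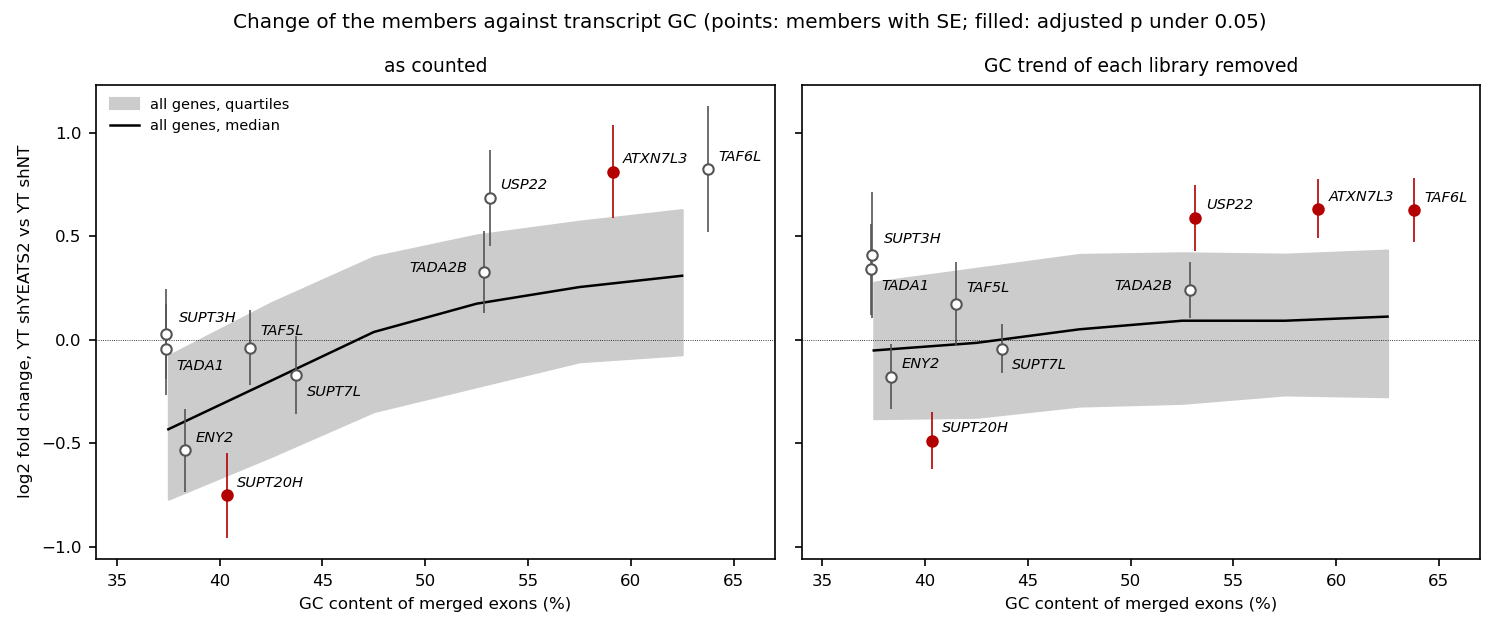
Log2 fold change of the members in YT shYEATS2 against YT shNT (vertical axis, bars of 1 SE, filled red where the adjusted p was under 0.05). The horizontal axis gives the GC content in percent of each gene's longest annotated transcript, though its label reads merged exons. Values are shown as counted (left) and with each library's GC trend removed (right). The black line and grey band are the median and quartiles of all genes averaging 50 counts or more, in bins of 5 GC points. On the left the black line climbs from -0.43 to 0.31. On the right it stays between -0.05 and 0.11 while ATXN7L3, TAF6L and USP22 stay above the band and SUPT20H below it. SUPT3H and TADA1, at the left end of the band and not called, also lie above its upper quartile there (0.28).

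No member was called after ZZZ3 knock-down in YT cells, where 10% of all genes were called by edgeR. DESeq2 called none of the 10 either, and 13% of all genes. In edgeR 5 members had an unadjusted p under 0.05, as did 4508 of the 18415 genes tested. This comparison uses the same 2 YT shNT libraries as the one before it, so the 2 sets of values are not independent. The groups did not overlap for 7 of the 10 members (52.7% of all genes), and the median change was 0.25 (all genes, 0.01). ATXN7L3 was at 180.2 and 127 CPM in YT shZZZ3 (0.58 ± 0.22, adjusted p = 0.13), TAF6L at 41.6 and 27.4 CPM (0.68 ± 0.30, adjusted p = 0.20) and USP22 at 897 and 601 CPM (0.49 ± 0.23, adjusted p = 0.22). The first library of the group was the higher one for all 3, and its GC slope was 0.17, against -0.29 in the second. SUPT20H was at 37.4 and 50 CPM (-0.49 ± 0.20, adjusted p = 0.16) and SUPT7L at 58.1 and 80.3 CPM (-0.45 ± 0.19, adjusted p = 0.16), both below either YT shNT library. TAF5L, the SAGA counterpart of TAF5, was at 32.9 and 32.4 CPM against 23.3 and 26 CPM in YT shNT (0.41 ± 0.18, adjusted p = 0.20). TADA1, a small histone-fold core subunit, was at 14.2 and 16.6 CPM against 11.6 and 11.8 (0.39 ± 0.22, adjusted p = 0.30). With the GC trend removed, which led to calls for 20.5% of all genes, SUPT7L (-0.45 ± 0.12, adjusted p = 0.0195), TAF6L (0.50 ± 0.15, adjusted p = 0.0391) and SUPT20H (-0.43 ± 0.14, adjusted p = 0.0455) were called. ENY2 was at 39.9 and 52.3 CPM, overlapping with YT shNT.

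In TC cells neither knock-down moved a member past the test. For YEATS2 knock-down edgeR called 0.0434% of all genes and none of the 10 members. An unadjusted p under 0.05 was found for 0 members and for 927 of the 18415 genes tested. The changes ran from -0.03 for SUPT7L to 0.30 for SUPT3H, and the median size without sign was 0.06 (all genes, 0.17). ATXN7L3 was at 159 and 111 CPM in TC shNT and 146 and 171 CPM in TC shYEATS2, and SUPT20H at 39.4 and 49.8 CPM against 47.7 and 41.2 CPM, so both genes overlapped between groups. For ZZZ3 knock-down edgeR called 1.53% of all genes and again none of the members. DESeq2 called none in either TC comparison, where it called 0.648% (YEATS2) and 2.89% (ZZZ3) of all genes. SUPT3H, a core subunit with paired histone folds, had the 1 unadjusted p under 0.05 of the members, where 1991 of the 18415 genes tested had one. It was at 8.28 and 9.08 CPM in TC shNT and at 14.1 and 11.4 CPM in TC shZZZ3 (0.55 ± 0.22, adjusted p = 0.36). The groups did not overlap for 2 members in TC shYEATS2 (SUPT3H and TAF5L; 20.2% of all genes) and for 3 in TC shZZZ3 (SUPT3H, TAF5L and SUPT20H; 36.6% of all genes). The 2 TC shNT libraries, which both comparisons share, were far apart for several members. TAF6L was at 42.6 and 23.7 CPM and USP22 at 741 and 533 CPM there, and the GC slopes of these libraries were 0.33 and -0.24, the highest of the 12 and the second lowest. The part of this spread in the missing calls was not tested.

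Between the fusions under the control hairpin no member was called by edgeR or DESeq2, which called 9.23% and 12.5% of all genes. In edgeR 2 members had an unadjusted p under 0.05, as did 4408 of the 18415 genes tested. SUPT20H, SUPT7L and SUPT3H had the largest positive differences of YT shNT over TC shNT (0.46 ± 0.20, 0.36 ± 0.19 and 0.52 ± 0.22, adjusted p = 0.20, 0.27 and 0.18), and in each both YT libraries were above both TC libraries. TAF6L had the largest negative one (-0.62 ± 0.30, adjusted p = 0.24) with overlapping groups. Its value rested on the TC shNT libraries: it was -1.01 without the second and -0.16 without the first. Groups did not overlap for 5 of the 10 members (51.3% of all genes), SUPT3H, SUPT7L and SUPT20H on the higher side and TADA1 and ATXN7L3 on the lower. The difference in the effect of YEATS2 knock-down between fusions (YT minus TC) was called for none of the members and for 9.37% of all genes. SUPT20H had the smallest p (-0.75 ± 0.29, adjusted p = 0.14), followed by ENY2 (-0.53 ± 0.28, adjusted p = 0.28), TAF6L (0.80 ± 0.43, adjusted p = 0.28) and ATXN7L3 (0.58 ± 0.31, adjusted p = 0.29). TAF6L was at 0.33 there without the first TC shNT library and at 1.19 without the second. For ZZZ3 knock-down the difference was called for 4.32% of all genes and for none of the members, with SUPT3H at the smallest p (-0.74 ± 0.31, adjusted p = 0.24). In each of these tests 1 member had an unadjusted p under 0.05 in edgeR. Of the 18415 genes tested, 4435 (YEATS2) and 3146 (ZZZ3) had one. DESeq2 called none of the members, and 12.2% and 6.92% of all genes. The effects on SUPT20H and ATXN7L3 in YT cells were therefore not shown to differ from those in TC cells.

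Levels per kilobase also place SAGA subunits beside the paralogs that ATAC or TFIID use in their stead. TADA2B stood above TADA2A, its ATAC counterpart, in all 12 libraries, at 1.26 to 2.23 times its level. TAF5L stood at 5.32 to 6.85 times the level of TAF5. TAF6L lay below TAF6 throughout, at 0.35 to 0.72 of its level per kilobase of merged exons and at 0.18 to 0.37 per kilobase of canonical transcript. The TAF6L to TAF6 ratio was 0.35 and 0.45 in YT shNT, the 2 lowest of the 12 libraries. It was 0.66 and 0.72 in YT shYEATS2, 0.64 and 0.64 in YT shZZZ3, and 0.52 to 0.60 in the 6 TC libraries. TAF6 itself was at 127 and 123 CPM in YT shNT and at 131 and 128 CPM in YT shYEATS2 (0.05 ± 0.27, adjusted p = 0.91). Its longest annotated transcript is 56.6% GC. The TADA2B to TADA2A ratio was 1.71 and 2.23 in YT shNT against 1.56 and 1.40 in YT shZZZ3 and 1.70 and 1.81 in YT shYEATS2, the last overlapping with the control. Ratios are given as a description, without a test.

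**Figure D4:**
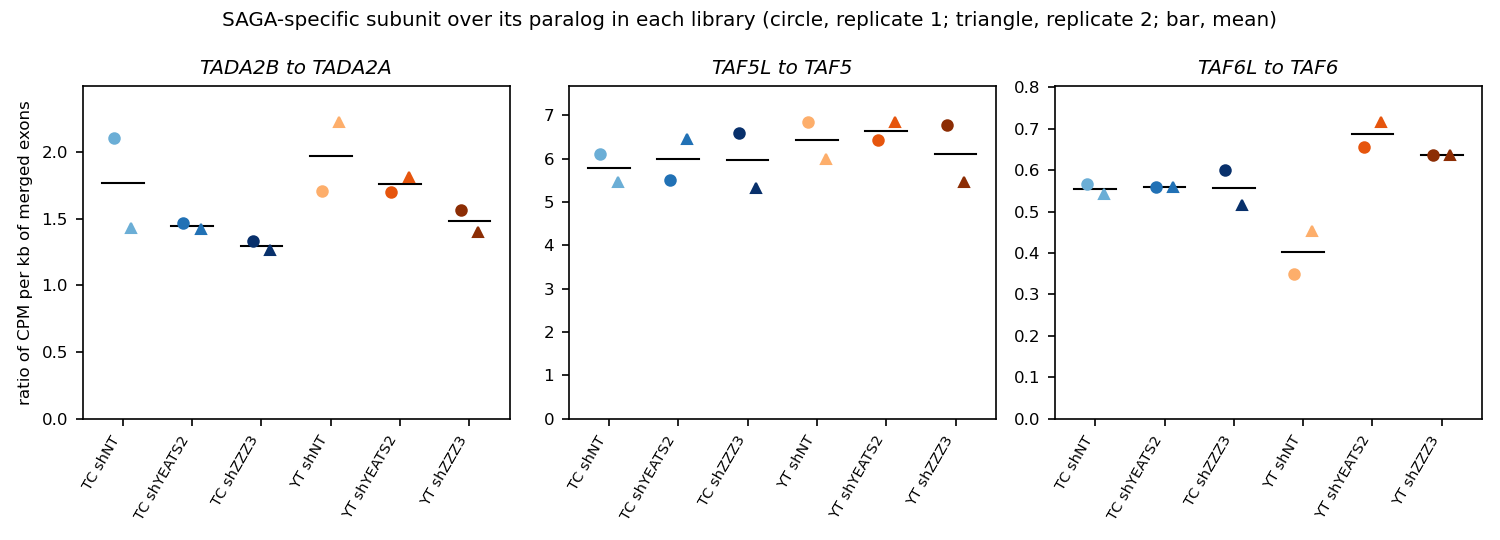
Ratio of each SAGA subunit to its paralog in every library, as CPM per kilobase of merged exons on axes starting at 0 (circles, replicate 1; triangles, replicate 2; black lines, mean of 2 libraries). TADA2B and TAF5L stay above their paralogs in all libraries, and TAF6L to TAF6 is lowest in YT shNT, at 0.35 and 0.45.

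The rest of the machinery gives the members a setting. Of the 7 ATAC-specific subunits, the main edgeR fit (all 12 libraries, group as factor) called YEATS2 in both YEATS2 knock-downs and ZZZ3 in YT shZZZ3, as above. Its only other call was DR1, a histone-fold subunit also known as a TBP-binding repressor, which fell by 0.88 in YT shYEATS2 (adjusted p = 0.0223). With the GC trend removed, 31.2% of all genes were called in YT shYEATS2, 20.5% in YT shZZZ3, 18.1% between the control groups and 19.5% in the YEATS2 interaction. TADA2A was then called in YT shYEATS2 (0.60, adjusted p = 7.13e-03) and YT shZZZ3 (0.54, adjusted p = 0.0188). KAT14 was called in YT shYEATS2 (-0.41, adjusted p = 0.0266) and the YEATS2 interaction (-0.54, adjusted p = 0.0482). DR1 was called in that interaction as well (-0.58, adjusted p = 0.0286). None of the 4 genes of the shared acetyltransferase module (KAT2A, KAT2B, TADA3, SGF29) was called in any of the 7 comparisons by the main edgeR fit. In that fit 1 of the 4, TADA3, had an unadjusted p under 0.05, in YT shYEATS2 (0.78 ± 0.28, adjusted p = 0.0682), and DESeq2 called it there (0.80, adjusted p = 0.0325). With the GC trend removed, TADA3 (0.63, adjusted p = 8.38e-03) and SGF29 (-0.75, adjusted p = 0.0132) were called in YT shYEATS2. SGF29 was also called in the YEATS2 interaction (-1.08, adjusted p = 0.0174). Among 10 further SAGA subunits, ATXN7L1, a relative of the deubiquitinase anchor ATXN7, was the 1 called by the main fit. It was at 26.8 and 28.4 CPM in YT shNT and between 13.4 and 17.7 CPM in the other 10 libraries. It fell by 1.02 in YT shYEATS2 (adjusted p = 3.84e-03) and by 0.82 in YT shZZZ3 (adjusted p = 0.0209), and its YT shNT level exceeded that of TC shNT (0.79, adjusted p = 0.0268). The large scaffold TRRAP and the TAFs that SAGA shares with TFIID were not called in any of the 7 by the main fit. With the GC trend removed, TAF9B (-0.51, adjusted p = 0.0277) and ATXN7L2 (-0.52, adjusted p = 0.0381) were called between the control groups. ATXN7L2 was also called in YT shZZZ3 (0.52, adjusted p = 0.0344). DESeq2 called ATXN7L1 in the same 3 comparisons and also in the YEATS2 interaction (-0.87, adjusted p = 0.0261), and it called ATXN7L2, with a difference of YT shNT from TC shNT of -0.71 (adjusted p = 0.0360).

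Of 12 TFIID subunits that SAGA lacks, 3 were called in YT shYEATS2, where 20.7% of all genes were. TAF7, an inhibitor of TAF1, rose (0.70, adjusted p = 0.0134), and TAF2 and TAF4B fell (-0.999, adjusted p = 0.0146, and -1.24, adjusted p = 0.0107). TAF7 also rose in YT shZZZ3 (0.64, adjusted p = 0.0343), and its response to YEATS2 knock-down differed between fusions (0.89, adjusted p = 0.0367). In the ZZZ3 interaction TAF7 was called by DESeq2 (0.92, adjusted p = 7.99e-03; 6.92% of all genes). It was also called there with the GC trend removed (0.95, adjusted p = 0.0112), where 10.8% of all genes were. TAF4B was called in the YEATS2 interaction by DESeq2 (-1.22, adjusted p = 0.0394) and with the GC trend removed (-1.17, adjusted p = 0.0212). CETN2, a centrin of TREX-2, with which SAGA shares ENY2, was the 1 of 5 TREX-2 genes called by the main fit. It rose in YT shYEATS2 (0.80, adjusted p = 0.0157), where ENY2 had a negative change, and its YT shNT level was under that of TC shNT (-0.80, adjusted p = 0.0297). DESeq2 also called CETN2 in YT shZZZ3 (0.67, adjusted p = 0.0208), where it called 13% of all genes. The TIP60 complex, which shares TRRAP with SAGA, had 2 of 14 genes called in YT shYEATS2, DMAP1 (0.74, adjusted p = 0.0107) and BRD8 (0.62, adjusted p = 0.0150). BRD8 was also called in YT shZZZ3 (0.70, adjusted p = 0.0151), between the control groups (-0.76, adjusted p = 0.0103) and in the ZZZ3 interaction (0.85, adjusted p = 0.0490), and DMAP1 in the YEATS2 interaction (0.88, adjusted p = 0.0406). BRD8 was called in the YEATS2 interaction by DESeq2 (0.71, adjusted p = 0.0171) and with the GC trend removed (0.72, adjusted p = 6.56e-03). The same 2 fits called DMAP1 in YT shZZZ3 (0.52, adjusted p = 0.0357, and 0.46, adjusted p = 0.0172). With the GC trend removed DMAP1 was also called in the ZZZ3 interaction (0.59, adjusted p = 0.0427) and between the control groups (-0.41, adjusted p = 0.0307). The deubiquitinases USP27X and USP51 were called in no comparison, by edgeR or DESeq2, and neither had an unadjusted p under 0.05 in edgeR. In YT shYEATS2 their changes were -0.45 ± 0.24 and -0.64 ± 0.30, opposite in sign to that of USP22. Over all 54 genes of these companion lists, 9 were called in YT shYEATS2, against 20.7% of all genes tested. The 9 include YEATS2, the target of the hairpin. With the GC trend removed, TAF8 (0.42, adjusted p = 0.0169) and CETN3 (0.42, adjusted p = 0.0397) were called there too. CETN3 was also called between the control groups (-0.45, adjusted p = 0.0418) and in the YEATS2 interaction (0.68, adjusted p = 0.0304).

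Across the 12 libraries the log2 levels of USP22 and ATXN7L3 moved in parallel (Pearson r = 0.98), and TAF6L followed both (r = 0.83 and 0.85). SUPT20H ran against these 3 (r = -0.83 with TAF6L and USP22 to -0.86 with ATXN7L3), and ENY2 ran with TADA1 (r = 0.79) and against TADA2B (r = -0.74). Among 13258 genes averaging 50 counts or more, the 5 whose levels were most like those of TAF6L were AKT2 (r = 0.973), DHX30 (r = 0.972), RFX1 (r = 0.972), HDGFL2 (r = 0.969) and FZR1 (r = 0.965). Their longest annotated transcripts were 58.0% to 65.1% GC, close to the 63.8% of TAF6L. These correlations describe 12 libraries that share the groups, the depth and the GC slopes given above.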

How the data were processed

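RNA of 12 libraries in 6 groups of 2 was analysed, grouped from the labels alone. The deposited values were raw counts per gene, made by the authors from stranded mRNA libraries with bcbio-nextgen on hg38; whether HISAT2 alignments or Salmon with tximport gave these counts, and whether strand was used in counting, is not given in the sources used here. In GENCODE release 44, exons of counted genes on the opposite strand overlap those of 6 members, at most 21% of exon bases (SUPT7L) and 19.7% in SUPT20H and TAF6L. Genes were joined by Ensembl ID.

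The 18415 genes averaging 5 counts or more were scaled by TMM and fitted in edgeR (version 4.0.16, R 4.3.3) by the quasi-likelihood test with group as factor over all 12 libraries and a prior count of 2, with 7 contrasts. P-values were two-sided and adjusted by Benjamini-Hochberg over all genes tested. Alternatives were DESeq2 (1.42.0), other scalings and filters, the contrast's groups alone, a replicate block, removal of each library's GC trend and leaving out each library. The GC trend was a spline on the GC of each gene's longest annotated transcript, entered as offsets. Simulated data were used to test the fit. The members and companion lists were chosen with earlier results of these data known. All 10 members are named; from each companion list, every called gene where at most 4 were called and otherwise the 4 smallest p-values; YEATS2 and ZZZ3; and the 5 genes most like the member with the widest ratio of group means. Promoter windows came from RefSeq.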

Additional observations from a re-analysis of the deposited data

Results flagged for a closer look

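By the interaction test of the main edgeR fit the response to a knock-down differed between the fusions in no SAGA-specific subunit. It did in 3 genes of neighbouring complexes, 2 of 54 companion genes for YEATS2 (9.37% of all genes) and 1 of 54 for ZZZ3 (4.32%), which are given here as values. TAF7 of TFIID had a difference of 0.89 (YT minus TC, adjusted p = 0.0367) for YEATS2 knock-down, with 115 and 92.7 CPM in YT shYEATS2 against 62.7 and 65.2 in its control, and 66 and 69.7 CPM in TC shYEATS2 against 74.6 and 80.6. DMAP1 of the TIP60 complex had a difference of 0.88 for YEATS2 knock-down (adjusted p = 0.0406). BRD8, also of TIP60, had a difference of 0.85 for ZZZ3 knock-down (adjusted p = 0.0490), and its YT shNT libraries, at 92.3 and 101 CPM, were the lowest of the 12. They were called in 13 (TAF7), 10 (DMAP1) and 11 (BRD8) of 21 alternatives. Each missed the threshold with no filter on low counts (adjusted p = 0.0637 for TAF7, 0.0970 for DMAP1 and 0.0674 for BRD8), in the fit to the contrast's groups alone (0.0728, 0.0890 and 0.0685), without either YT shNT library and without either TC shZZZ3 library. Over the 21 alternatives the adjusted p reached 0.136 for TAF7, 0.149 for DMAP1 and 0.207 for BRD8.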

How the results depend on the processing

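In YT shYEATS2, where edgeR called 2 members, DESeq2, the fit with no filter on low counts and the removal of the GC trend each called 4 (SUPT20H, ATXN7L3, USP22 and TAF6L; 23.9%, 14.8% and 31.2% of all genes), and the fit to the contrast's groups alone called 5 (48.6%). Leaving out 1 library gave 0 to 4 calls, with 0 whenever the library was one of YT shNT or YT shYEATS2 (8.23% to 8.93% of all genes); the cause was not tested, and such fits have fewer samples. In YT shZZZ3 the removal of the GC trend gave 3 calls instead of 0 (20.5% of all genes). The change of ATXN7L3 there was 0.60 without the first and without the second TC shNT library. Between the control groups and in the YEATS2 interaction, TAF6L was at -1.01 and 1.19 without the second TC shNT library, against -0.16 and 0.33 without the first. The other 3 comparisons kept 0 member calls under all alternatives run. The labels number the libraries alike in each group, but the correlation of same-numbered libraries' deviations was over 0.1 in only 7 of 15 pairs of groups: 0.18 to 0.90 in the 6 among the TC groups and YT shZZZ3, and -0.44 to 0.25 in the 9 with YT shNT or YT shYEATS2. As not every pair was over 0.1, the numbers were not read as pairs. With the replicate block, 4 members were called in YT shYEATS2 (25.3% of all genes); with the block and the GC trend removed, 4 were called there (35.6%), 4 in YT shZZZ3 (24.3%), 1 (ENY2) between the control groups (22.1%) and 1 (SUPT20H) in the YEATS2 interaction (23.5%). Of 24 member fold changes followed through 21 alternatives, those with an unadjusted p under 0.05 or a size of at least 0.4, none changed sign. The 20 calls among the companion genes all held in DESeq2, with RLE factors, with the block and with the GC trend removed, but 11 were lost in the fit to the contrast's groups alone, 5 with no filter, 2 with library totals and 1 with filterByExpr, and 18 without the first YT shNT library.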
